A study of Mus musculus with 24 samples.

Results

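The genes described here are 8 genes of inflammatory cell death, namely Zbp1, Ripk1, Ripk3, Mlkl, Casp8, Casp1, Casp4 and Gsdmd. They were chosen by name for their place in necroptosis and pyroptosis and make up 8 of the 52636 genes of the expression table. RNA was sequenced from MC38, a colorectal cancer cell line of C57BL/6 mice, in 24 samples, 3 from each of 8 lines. MC38-WT was unmodified (passage 7, 8 and 9) and was grown without puromycin, the antibiotic in which all other lines were kept. MC38-MOCK#1 carried an empty CRISPR-Cas9 construct, and MC38-CMAS KO, MC38-COSMC KO and MC38-DKO were knockouts made with CRISPR-Cas9 (all 4 lines at passage 4, 5 and 6). Cmas makes the activated form of sialic acid, and C1galt1c1, also called Cosmc, is the chaperone of the enzyme that elongates the Tn antigen. MC38-DKO was labelled as lacking both. MC38-COSMC KO (the Tn-high line) was transfected and sorted in bulk for binding of a lectin to the Tn antigen and was not clonal, and how the other lines were selected is not given in the sources used here. MC38-MOCK#2 carried CRISPR-dCas-VPR, a transcriptional activator, without a target (passage 6, 7 and 8), and the lines labelled MC38-FUT4 (passage 7, 8 and 7) and MC38-FUT9 (passage 6, 7 and 8) carried it with the fucosyltransferase genes FUT4 or FUT9 as target. The methods describe separate passages and harvests for the samples of a line, but samples 1 and 3 of the line labelled MC38-FUT4 have the same passage in the labels, and whether they were separate cultures is not given. Squared differences between their estimated reads were 5.31 times those of sampling noise (chi-square per degree of freedom over 13673 genes). This was the least of the 24 pairs of samples within lines, which went up to 29.9. The p-values measure the spread between samples of 1 line and not between independently made lines, and in the line labelled MC38-FUT4 this spread may be partly technical.

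Necroptosis is a lytic form of cell death in which the kinase RIPK3 phosphorylates the pseudokinase MLKL, which then breaks the plasma membrane. RIPK3 is recruited by RIPK1 below death receptors, or by ZBP1, an interferon-induced sensor of Z-form nucleic acids, and caspase-8 holds this route in check by cleaving RIPK1 and RIPK3. Pyroptosis is carried out by gasdermin D, which forms pores once it is cut by caspase-1, the protease of inflammasomes, or by the product of mouse Casp4 (caspase-11), which binds intracellular lipopolysaccharide. Many tumour cell lines are known to silence Ripk3, and Zbp1, Casp1, Casp4 and Mlkl are known to respond to interferon.

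The deposited values, here called normalized counts, summed to between 10911849 and 12263307 per sample, and an estimated 6759066 to 16231182 reads per sample lay behind them, so that 1 read was worth 0.756 to 1.67 normalized counts. RNA of the targeted genes matched some labels and went against others. Cmas lay between 93 and 142 normalized counts in MC38-CMAS KO and MC38-DKO and between 272 and 416 in the other 6 lines. C1galt1c1 was lower in MC38-COSMC KO (124 to 163) than in MC38-MOCK#1 (220 to 251), while MC38-DKO (166 to 206) overlapped with MC38-CMAS KO (152 to 215), so the RNA level did not show the COSMC label of MC38-DKO. In the line labelled MC38-FUT4, Fut4 stood at 1, 0 and 1 normalized counts and Fut9 at 209, 171 and 186, against 955, 641 and 676 for Fut9 in MC38-FUT9 and at most 7 in any sample of the other lines. The leukocyte markers Cd3e and Ncr1 were at 0 in all 24 samples and Ptprc was at most 6. The 10 leukocyte markers together summed to between 25 and 71 per sample. Among them Cd68 lay between 17 and 63 and Lyz2 between 1 and 17, so these markers were present in every sample. Of the markers of intestinal epithelium, Epcam was at 0 in 22 of 24 samples, while Krt20 reached 468. The 6 fibroblast markers were uneven. Pdgfra lay between 401 and 1427 and Pdgfrb between 27 and 1100. The median was 51.5 for Col1a1, 26 for Col1a2, 6 for Dcn and 1 for Lum.

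**Figure D1:**
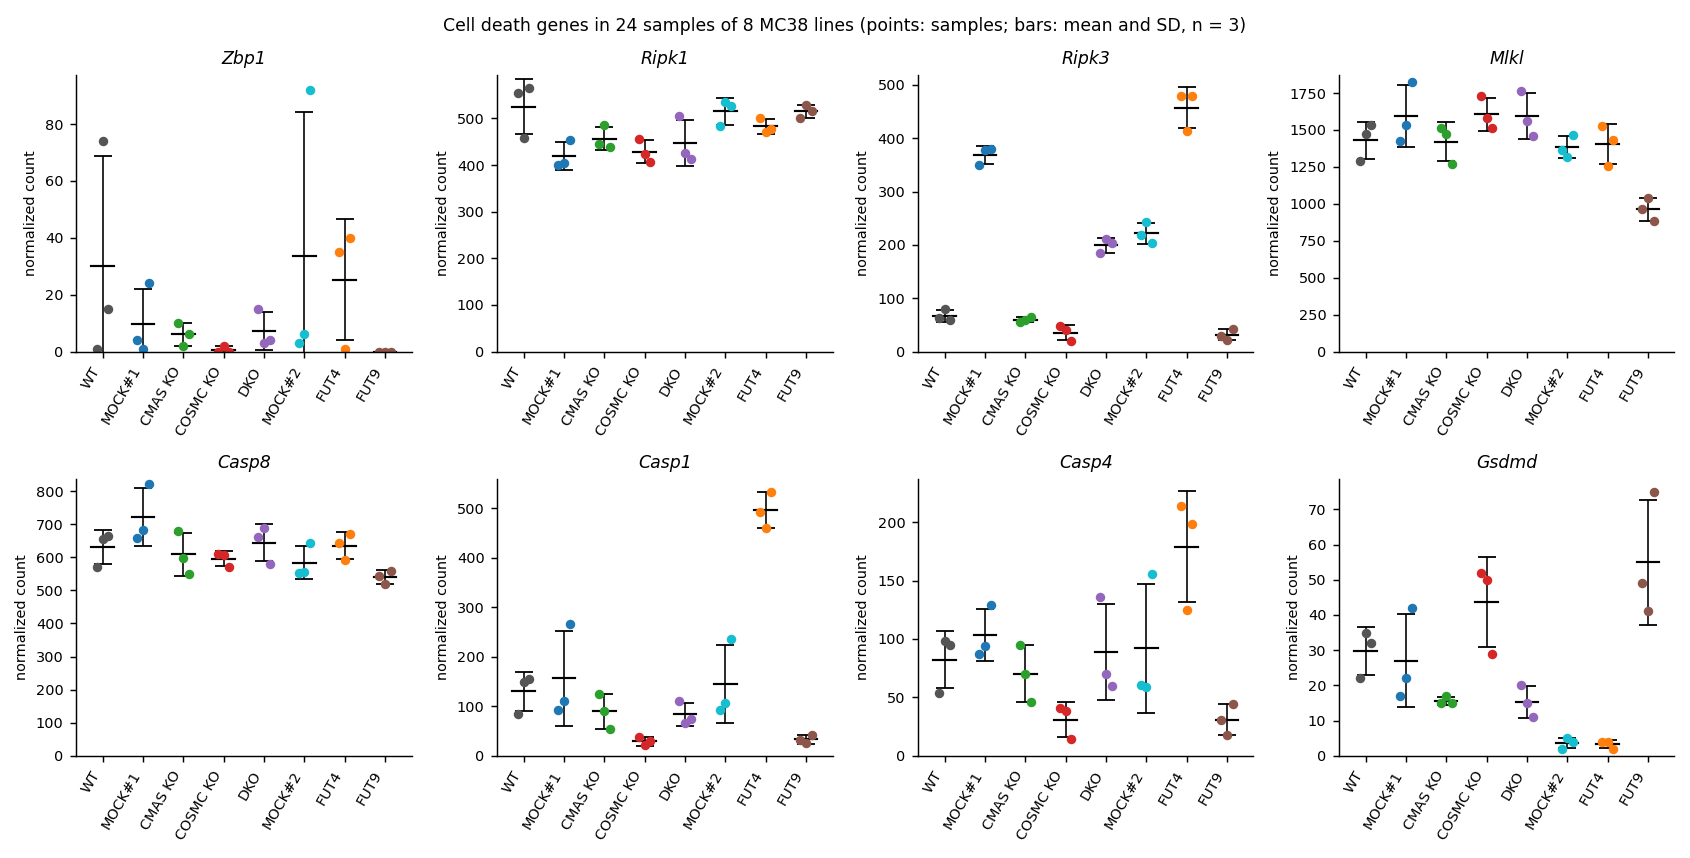
Normalized counts (vertical axes, from 0) of the 8 genes in each of 8 MC38 lines (horizontal axes). Points are samples, and bars give the mean and SD over 3 samples; Ripk3 ran from 19 to 480 normalized counts and Casp1 from 21 to 534, whereas Ripk1, Casp8 and Mlkl stayed within a narrow band in nearly every line.

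The level of a gene relative to others was read from normalized counts per kilobase of the gene length in the table, averaged over 24 samples. On this scale Mlkl stood highest at 619, followed by Casp8 at 214, Casp1 at 97.3, Ripk3 at 91.7, Ripk1 at 56.8, Casp4 at 22.8, Gsdmd at 13.6 and Zbp1 at 3.99. The executioner of necroptosis was thus the most abundant of the 8 transcripts, and the executioner of pyroptosis was among the scarcest.

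The share of the variance of log2 values that lay between lines was 97.0% for Ripk3, 92.8% for Gsdmd, 88.5% for Casp1, 81.1% for Mlkl, 73.8% for Casp4, 66.4% for Ripk1, 57.2% for Casp8 and 47.7% for Zbp1. The median over 13515 genes with a mean of at least 10 normalized counts was 67.6%. Ripk3 thus differed mainly from line to line, with samples of a line close together, and Zbp1 differed mostly between samples of the same line.

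Zbp1 (chromosome 2, 173206612 to 173218923 of GRCm38, minus strand), the sensor, was the least expressed member. It stood at 1, 74 and 15 normalized counts in samples 1, 2 and 3 of MC38-WT, at 4, 1 and 24 in MC38-MOCK#1, and at 3, 6 and 92 in MC38-MOCK#2. The knockouts held 10, 2 and 6 (MC38-CMAS KO), 0, 2 and 0 (MC38-COSMC KO) and 15, 3 and 4 (MC38-DKO). In each of MC38-WT, MC38-MOCK#1 and MC38-MOCK#2 a single sample was well above the remaining samples. The line labelled MC38-FUT4 had 35, 1 and 40 normalized counts, and in MC38-FUT9 Zbp1 was listed at 0 in all 3 samples. No line was separated from its neighbour in the order of the means, since neighbouring ranges overlapped throughout.

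Ripk1 (chromosome 13, 34002363 to 34037147, plus strand), the kinase that links death receptors to RIPK3, was nearly level. Line means ran from 419 ± 29.3 in MC38-MOCK#1 to 526 ± 58.9 in MC38-WT (SD, n = 3 each), a 1.25-fold span, and single samples lay between 400 and 565. All neighbouring lines overlapped. Its exons share 241 bases with Serpinb6a on the opposite strand, a gene with a median of 1853 normalized counts, and whether the counting used strand is not given in the sources used here.

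Casp8 (chromosome 1, 58795374 to 58847503, plus strand), the brake on necroptosis, was also nearly level. Line means spanned 1.34-fold, from 540 ± 20.3 in MC38-FUT9 to 722 ± 87.8 in MC38-MOCK#1 (SD, n = 3 each). All neighbouring lines overlapped, and the single highest sample was sample 3 of MC38-MOCK#1 with 822 normalized counts.

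Ripk3 (chromosome 14, 55784995 to 55788865, minus strand), the kinase required for necroptosis, differed most consistently between lines. It stood at 62, 80 and 60 normalized counts in MC38-WT but at 350, 378 and 379 in MC38-MOCK#1. The single knockouts were low, with 55, 60 and 64 in MC38-CMAS KO and 47, 40 and 19 in MC38-COSMC KO. MC38-DKO, with 184, 211 and 204, lay between them and the mock line and overlapped with MC38-MOCK#2 (218, 243 and 204). The line labelled MC38-FUT4 was highest with 480, 413 and 479, and MC38-FUT9 was among the lowest with 30, 22 and 42.

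In the order of the means Ripk3 fell from 457 ± 38.4 in the line labelled MC38-FUT4 through 369 ± 16.5 in MC38-MOCK#1, 222 ± 19.8 in MC38-MOCK#2, 200 ± 14.01 in MC38-DKO, 67.3 ± 11.02 in MC38-WT, 59.7 ± 4.51 in MC38-CMAS KO and 35.3 ± 14.6 in MC38-COSMC KO to 31.3 ± 10.1 in MC38-FUT9 (SD, n = 3 each). The highest mean was 14.6 times the lowest. MC38-MOCK#2 and MC38-DKO, MC38-WT and MC38-CMAS KO, and MC38-COSMC KO and MC38-FUT9 were neighbours whose samples overlapped, and each other step in this order separated all samples of the neighbouring lines. At passage 6, which 6 lines share, Ripk3 stood at 379 in MC38-MOCK#1, 64 in MC38-CMAS KO, 19 in MC38-COSMC KO, 204 in MC38-DKO, 218 in MC38-MOCK#2 and 30 in MC38-FUT9. The order at this shared passage was the same except that MC38-COSMC KO fell below MC38-FUT9.

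Mlkl (chromosome 8, 111311797 to 111338177, minus strand), the executioner that RIPK3 activates, had between 1256 and 1828 normalized counts in every sample outside MC38-FUT9. MC38-FUT9 had 962, 1042 and 884 and was separated from all other lines. The 2 lines with the lowest means of Ripk3 stood at opposite ends for Mlkl, with the highest mean in MC38-COSMC KO at 1607 ± 113 and the lowest in MC38-FUT9 at 963 ± 79.0 (SD, n = 3 each).

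Casp1 and Casp4 lie next to each other on the plus strand of chromosome 9, Casp1 from 5298517 to 5307265 and Casp4 from 5308828 to 5336783, with 1562 bases between them. Casp1, which encodes the inflammasome protease, was highest in the line labelled MC38-FUT4 with 493, 461 and 534 normalized counts, above every other sample. It stood at 85, 150 and 156 in MC38-WT, at 92, 111 and 266 in MC38-MOCK#1, and at 93, 107 and 236 in MC38-MOCK#2, where sample 3 of either mock line was well above the other samples. MC38-CMAS KO had 125, 91 and 54 and MC38-DKO 111, 67 and 75. MC38-COSMC KO, with 38, 21 and 29, and MC38-FUT9, with 32, 25 and 43, were lowest, and neither overlapped with any of the other 6 lines. The highest line mean, 496 ± 36.6, was 16.9 times the lowest, 29.3 ± 8.50 (SD, n = 3 each).

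Casp4, which encodes caspase-11, ran in much the same order over a narrower span of 5.77-fold. It stood at 54, 98 and 95 normalized counts in MC38-WT, at 87, 94 and 129 in MC38-MOCK#1, and at 61, 59 and 156 in MC38-MOCK#2. MC38-CMAS KO had 95, 70 and 46 and MC38-DKO 136, 70 and 60. The line labelled MC38-FUT4 had 214, 125 and 198, and its lowest sample lay below the highest samples of MC38-MOCK#1, MC38-DKO and MC38-MOCK#2. MC38-COSMC KO (41, 38 and 14) and MC38-FUT9 (31, 18 and 44) again lay below all samples of the other 6 lines. Across the 24 samples Casp1 was the gene most like Casp4 of all genes with a mean of at least 10 normalized counts (Pearson's r = 0.908 on log2 values), and after removal of the line means r was 0.726. The 24 samples share lines and libraries, so these are descriptions.

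Gsdmd (chromosome 15, 75862327 to 75867408, plus strand), which encodes the pore former of pyroptosis, ran in another order. MC38-FUT9 was highest with 49, 41 and 75 normalized counts, followed by MC38-COSMC KO with 52, 50 and 29. It stood at 22, 35 and 32 in MC38-WT, at 17, 22 and 42 in MC38-MOCK#1, at 15, 17 and 15 in MC38-CMAS KO and at 20, 15 and 11 in MC38-DKO. MC38-MOCK#2 (2, 5 and 4) and the line labelled MC38-FUT4 (4, 4 and 2) held only a few normalized counts, below all samples of the other 6 lines. The mean of MC38-FUT9, 55.0 ± 17.8, was 16.5 times that of the line labelled MC38-FUT4, 3.33 ± 1.15 (SD, n = 3 each). The 2 lines with the lowest means of Ripk3, MC38-FUT9 and MC38-COSMC KO, thus had the highest of Gsdmd, and the line with the highest mean of Ripk3 had the lowest of Gsdmd. Across the 24 samples Pearson's r between Ripk3 and Gsdmd was -0.679, whereas after removal of the line means it was 0.50, so the opposite order held between lines and not between samples of a line. Ripk3 and Gsdmd have 1964 and 1776 bases in the table against 2292 and 2377 in the annotation used here for coordinates, and their gene models therefore differ.

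Because Ripk3, Casp1 and Casp4 were low together in MC38-COSMC KO and MC38-FUT9, their upstream sequences are shown. These genes were picked after their values were seen, and Ripk3 was also low in MC38-WT and MC38-CMAS KO. Zbp1 too had its lowest line means in MC38-COSMC KO and MC38-FUT9, but no promoter sequence was at hand for it. RefSeq promoter windows of GRCm38.p6 were at hand for 6 of the 8 genes, namely Ripk1, Ripk3, Mlkl, Casp8, Casp1 and Casp4. Each window holds 300 bases around a transcription start, and the 250 bases upstream of the start are printed 5′ to 3′ on the strand of the gene. Capitals mark matches on either strand to any of 4 motifs that were searched, the interferon-stimulated response element (GAAA, any 2 bases, GAAA), the gamma-activated site (TTC, any 3 bases, GAA), an NF-kappaB-like motif (GGG, any 3 bases, TTCC) and the E-box (CACGTG).
Ripk3 (1 E-box, chr14:55788858-55789107, minus strand): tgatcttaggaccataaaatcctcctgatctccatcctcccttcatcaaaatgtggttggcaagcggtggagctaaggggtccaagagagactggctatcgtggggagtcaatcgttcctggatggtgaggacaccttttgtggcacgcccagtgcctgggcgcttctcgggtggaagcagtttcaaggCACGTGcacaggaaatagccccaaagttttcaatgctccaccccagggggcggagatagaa
Casp1 (1 E-box, chr9:5298267-5298516, plus strand): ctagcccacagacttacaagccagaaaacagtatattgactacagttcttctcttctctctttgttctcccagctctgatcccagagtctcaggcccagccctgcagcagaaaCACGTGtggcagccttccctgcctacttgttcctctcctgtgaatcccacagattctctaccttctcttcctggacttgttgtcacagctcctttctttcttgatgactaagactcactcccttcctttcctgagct
Casp4 (3 NF-kappaB-like matches, chr9:5308599-5308848, plus strand): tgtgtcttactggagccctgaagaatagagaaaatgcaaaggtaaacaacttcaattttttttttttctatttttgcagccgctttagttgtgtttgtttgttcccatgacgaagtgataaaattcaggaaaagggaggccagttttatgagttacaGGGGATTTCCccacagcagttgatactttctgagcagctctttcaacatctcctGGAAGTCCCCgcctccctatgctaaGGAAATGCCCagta
The E-box in capitals begins 61 bases upstream of the start of Ripk3 and 137 bases upstream of that of Casp1, and CACGTG occurred in 7.15% of 32851 promoter windows of the same length. The matches in the Casp4 window begin 93, 39 and 14 bases upstream of the start, and 5.56% of all windows held at least 1 NF-kappaB-like match. The interferon-stimulated response element, found in 3.44% of all windows, and the gamma-activated site, found in 8.30%, had matches only in the window of the downstream start of Ripk1, and the windows of Mlkl and Casp8 had no match to any of the 4 motifs. The 3 genes that were low together shared no motif among those searched, since the E-box was in the windows of Ripk3 and Casp1 but not of Casp4. These are letter matches in short windows, and binding was not measured.

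Differences between lines were tested with limma on log2(normalized count + 1), with the 3 samples of either line, and p-values were adjusted by Benjamini-Hochberg over all genes tested. A gene was called changed at an adjusted p below 0.05, and log2 fold changes are on this scale, on which changes of low genes are understated. All 8 genes passed the filter on zeros in each comparison.

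**Figure D2:**
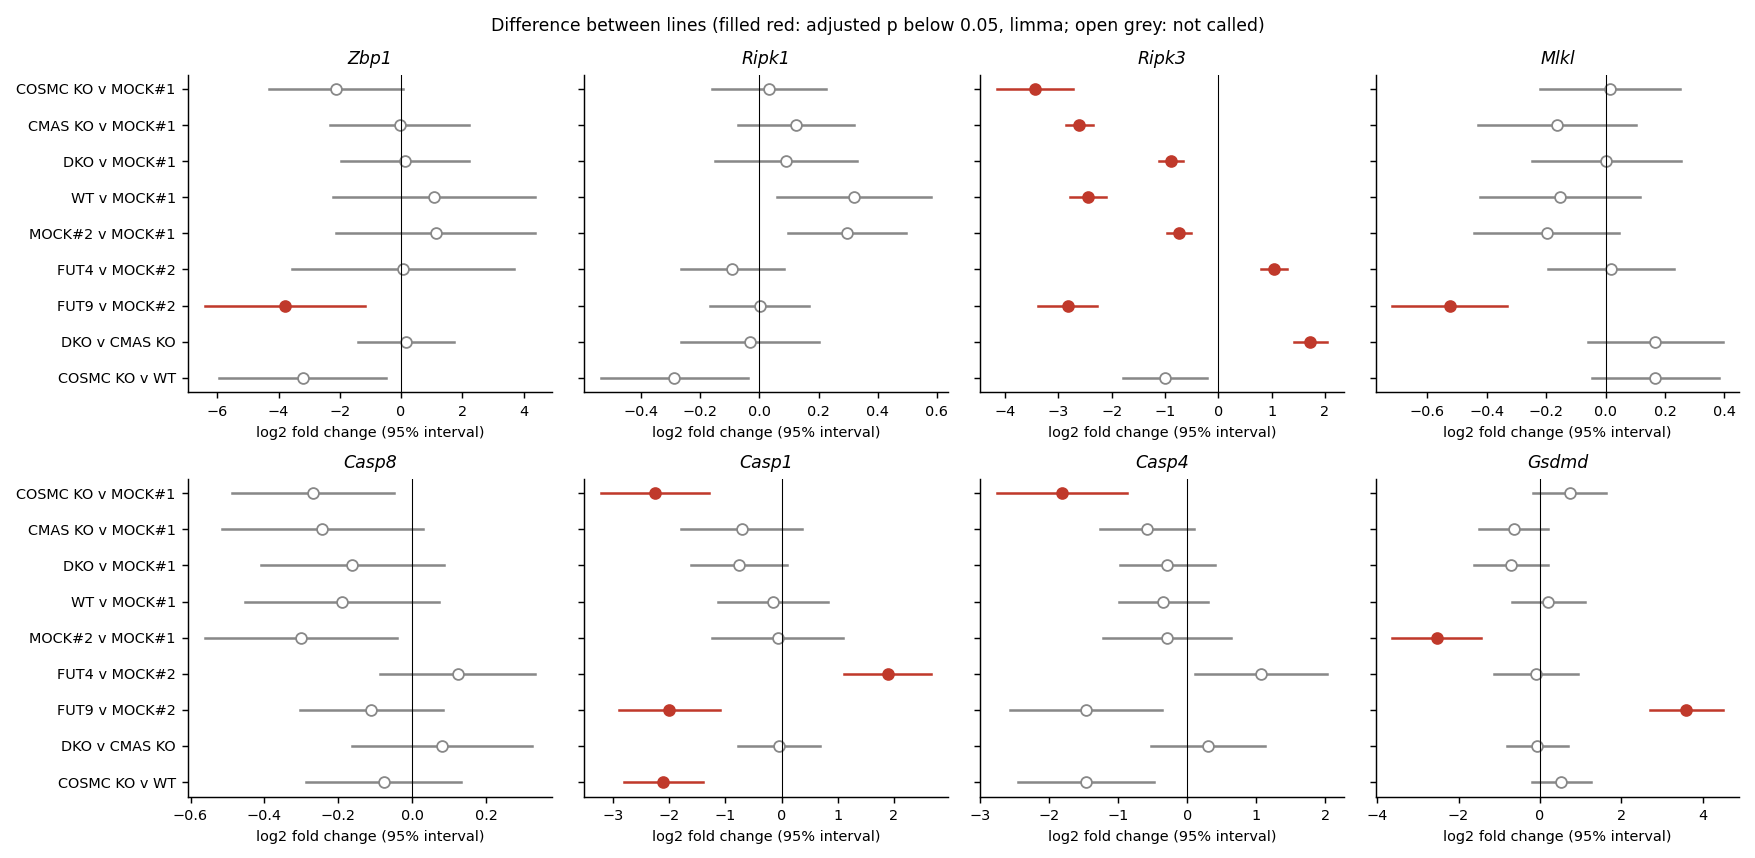
Log2 fold change (horizontal axes, which differ in range between panels) of each of the 8 genes in 9 comparisons of lines (vertical axis), with 95% intervals from limma on log2(normalized count + 1). Filled red points passed an adjusted p below 0.05; Ripk3 passed in 8 of the 9 comparisons, Ripk1 and Casp8 in none, and the value of Zbp1 in MC38-FUT9, where it is listed at 0, depends on the pseudocount.

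MC38-COSMC KO was compared with MC38-MOCK#1 to ask how loss of Cosmc, and with it the exposure of the Tn antigen, goes along with expression. Of the 8 genes, 3 fell and none rose, against 11.6% of 22172 genes called in either direction and 5.39% called lower. Ripk3 fell by 3.44 on the log2 scale (SE 0.31, adjusted p = 0.00119, limma), from 369 to 35.3 normalized counts. Casp1 fell by 2.25 (SE 0.41, adjusted p = 0.0159) and Casp4 fell by 1.82 (SE 0.40, adjusted p = 0.0296). Samples of the lines did not overlap for 4 of the 8 genes (these 3 and Casp8), against 28.4% of all genes. Gsdmd averaged 43.7 against 27.0 normalized counts (log2 fold change 0.73, 95% interval -0.17 to 1.63, adjusted p = 0.290), and its samples overlapped. Zbp1 averaged 0.67 against 9.67 (log2 fold change -2.13, 95% interval -4.33 to 0.07, adjusted p = 0.208, limma). It was not called and its samples overlapped, and this wide interval leaves room for a large fall. The authors, who used edgeR on counts, listed Zbp1, Casp1 and Casp4 among the genes changed in this line (false discovery rate below 0.05). Mlkl (0.02, interval -0.22 to 0.25) and Ripk1 (0.03, interval -0.16 to 0.23) were not called, and their intervals leave room only for small differences.

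The call of Ripk3 held when any single sample was left out. That of Casp1 held in 2 of 6 such fits and was lost without MC38-MOCK#1 sample 2 or without any of the samples of MC38-COSMC KO (adjusted p up to 0.105). That of Casp4 held in 1 of 6 and was lost without any sample of MC38-MOCK#1 and without MC38-COSMC KO sample 1 or 2 (adjusted p up to 0.122).

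Against MC38-WT in place of the mock line, MC38-COSMC KO differed in 1 of the 8 genes, Casp1, which was lower (log2 fold change -2.10, SE 0.31, adjusted p = 0.0333, limma), against 0.581% of 21843 genes called and 0.353% called lower. This call was lost when any of the 6 samples was left out (adjusted p 0.0647 to 0.277). Ripk3 had a log2 fold change of -0.99 (95% interval -1.78 to -0.21, adjusted p = 0.237) and Casp4 of -1.47 (interval -2.46 to -0.48, adjusted p = 0.184), with samples that did not overlap in either case. Samples of these lines were separate for 4 of the 8 genes (Ripk1, Ripk3, Casp1 and Casp4), against 17.3% of all genes. MC38-WT and MC38-COSMC KO also differ in puromycin, passage and transfection, which cannot be told apart from the knockout here.

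MC38-WT itself differed from MC38-MOCK#1 in 1 of the 8 genes, against 5.51% of 21621 genes called and 2.81% called lower. Ripk3 was lower in the unmodified line (log2 fold change -2.45, SE 0.14, adjusted p = 7.28e-04, limma), and this held when any sample was left out. The unmodified line was thus as low in Ripk3 as MC38-CMAS KO, whose samples overlapped with it, and the high level in MC38-MOCK#1 cannot be told apart from puromycin, passage and transfection. Ripk1 had a log2 fold change of 0.32 (95% interval 0.06 to 0.58, adjusted p = 0.154) and was not called.

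MC38-CMAS KO was compared with MC38-MOCK#1 to ask the same of the loss of Cmas. A single member fell, against 5.76% of 22024 genes called and 2.73% called lower. Ripk3 fell by 2.61 on the log2 scale (SE 0.11, adjusted p = 2.29e-04, limma) to 59.7 normalized counts, close to the 67.3 of MC38-WT, and the call held whichever sample was left out. Casp1 (log2 fold change -0.71, 95% interval -1.79 to 0.37) and Casp4 (-0.59, interval -1.27 to 0.09) were not called.

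MC38-DKO differed from MC38-MOCK#1 in few genes, with 0.092% of 21738 called (20 genes) and 0.069% called lower, and Ripk3 was among them. It was lower (log2 fold change -0.88, SE 0.10, adjusted p = 0.0215, limma), the 1 member called of 8. The call was lost when any of the 6 samples was left out (adjusted p 0.206 to 0.452), although the log2 fold change stayed between -0.93 and -0.83.

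MC38-DKO was also set against MC38-CMAS KO, which shares the loss of Cmas, and here Ripk3 rose. It was the 1 gene of the 8 that was called, against 6.93% of 21858 genes called and 3.15% called higher, with 200 against 59.7 normalized counts (log2 fold change 1.73, SE 0.14, adjusted p = 5.44e-04, limma), and the call held in all 6 fits that left out a sample. Casp1 (-0.05, 95% interval -0.78 to 0.69) and Casp4 (0.30, interval -0.53 to 1.12) were not called.

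The COSMC label thus went with opposite changes of Ripk3 in the absence and presence of the CMAS label, and the difference itself was tested with the 12 samples of MC38-MOCK#1, MC38-CMAS KO, MC38-COSMC KO and MC38-DKO. The interaction was the change from MC38-CMAS KO to MC38-DKO minus that from MC38-MOCK#1 to MC38-COSMC KO. It was called for 3 of the 8 genes, all positive, against 23% of 20608 genes called and 11.5% called positive. Ripk3 had an interaction of 5.17 on the log2 scale (SE 0.34, adjusted p = 2.27e-07, limma), Casp1 of 2.21 (SE 0.55, adjusted p = 0.00959) and Casp4 of 2.12 (SE 0.57, adjusted p = 0.0147). All 3 calls held in each of 12 fits that left out a sample. Ripk3 changed in opposite directions in the 2 pairs of lines, while Casp1 and Casp4 fell from MC38-MOCK#1 to MC38-COSMC KO with no called change from MC38-CMAS KO to MC38-DKO. C1galt1c1 RNA did not separate MC38-DKO from MC38-CMAS KO, so the direction drawn for the COSMC label in these lines rests on the label. Each combination of labels was also a single line, so an interaction cannot be told apart from other differences between the lines.

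**Figure D3:**
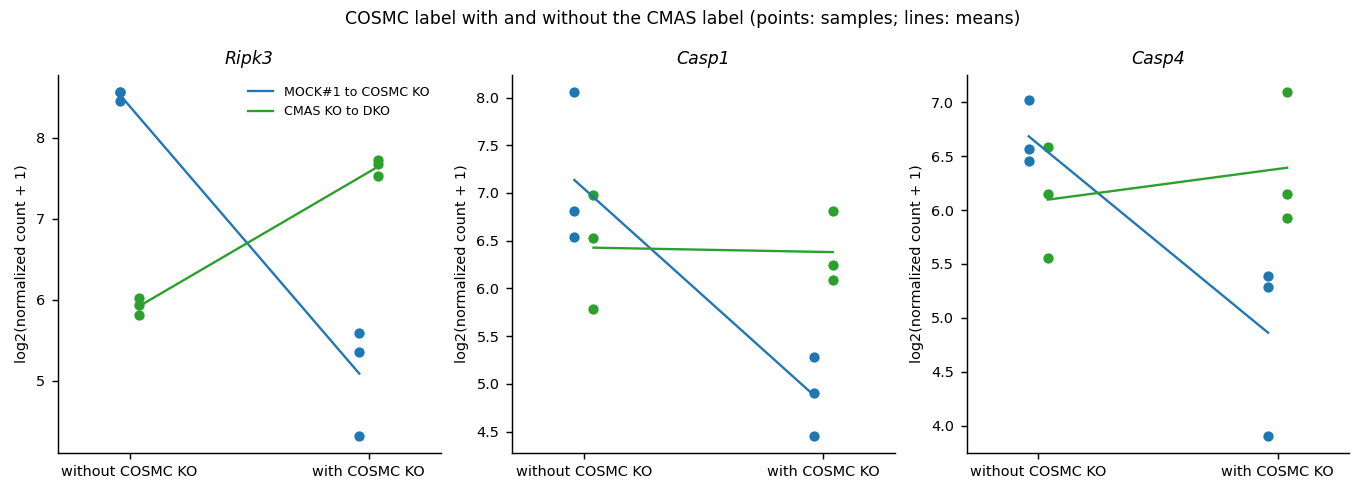
Log2(normalized count + 1) of Ripk3, Casp1 and Casp4 (vertical axes) in lines without and with the COSMC knockout label (horizontal axes), for MC38-MOCK#1 to MC38-COSMC KO (blue) and MC38-CMAS KO to MC38-DKO (green); points are samples and lines join means. The lines cross for Ripk3, with interactions of 5.17, 2.21 and 2.12 for the 3 genes in turn.

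Between the mock lines 2 of the 8 genes were called, both lower in MC38-MOCK#2, against 11.3% of 21667 genes called and 6.02% called lower. Ripk3 was lower in MC38-MOCK#2 (222 against 369 normalized counts, log2 fold change -0.74, SE 0.10, adjusted p = 0.00599, limma), and so was Gsdmd (3.67 against 27.0, log2 fold change -2.54, SE 0.46, adjusted p = 0.0173). The call of Ripk3 was lost without MC38-MOCK#1 sample 2 (adjusted p = 0.0507), and that of Gsdmd was lost without any single sample (adjusted p 0.0539 to 0.0868). Gsdmd levels of the lines built with dCas-VPR are therefore read against a mock line that held only 2 to 5 normalized counts.

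The line labelled MC38-FUT4 was compared with MC38-MOCK#2, and 2 of the 8 genes rose and none fell, against 16.1% of 21734 genes called and 8.1% called higher. Ripk3 rose by 1.04 on the log2 scale (SE 0.10, adjusted p = 0.00133, limma) to 457 normalized counts, and the call held in all 6 fits that left out a sample. Casp1 rose by 1.89 (SE 0.33, adjusted p = 0.00995). Casp1 stayed called in 2 of 6 such fits and was not called without MC38-MOCK#2 sample 2 or without any sample of the line labelled MC38-FUT4 (adjusted p up to 0.0765). Casp4 had a log2 fold change of 1.07 (95% interval 0.11 to 2.02, adjusted p = 0.130) and was called only without MC38-MOCK#2 sample 3 (1.52, adjusted p = 0.0267), the sample with 156 normalized counts. Gsdmd (-0.09, interval -1.12 to 0.94) and Mlkl (0.02, interval -0.19 to 0.23) were not called.

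MC38-FUT9 differed from MC38-MOCK#2 in 5 of the 8 genes, the most of any pair of lines compared, in the comparison that also had the highest background, 24.1% of 21480 genes called, with 12% called lower and 12.1% called higher. Zbp1, Ripk3, Mlkl and Casp1 fell and Gsdmd rose. Ripk3 fell by 2.83 on the log2 scale (SE 0.23, adjusted p = 5.64e-04, limma), Casp1 fell by 2.00 (SE 0.38, adjusted p = 0.0103) and Mlkl fell by 0.53 (SE 0.08, adjusted p = 0.00487). Gsdmd rose by 3.60 (SE 0.38, adjusted p = 0.00117), from 3.67 to 55.0 normalized counts. Zbp1 was listed at 0 in MC38-FUT9 against 3, 6 and 92 in MC38-MOCK#2 (adjusted p = 0.048), which gives no fold. Casp4 (31.0 against 92.0, log2 fold change -1.47, 95% interval -2.57 to -0.37, adjusted p = 0.0612) was not called, though its samples did not overlap, and Ripk1 (0.00, interval -0.17 to 0.17) and Casp8 (-0.11, interval -0.30 to 0.08) were not called either. Samples were separate for 6 of the 8 genes, against 36.8% of all genes.

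The calls of Ripk3, Mlkl and Gsdmd in MC38-FUT9 held whichever sample was left out. Casp1 was not called without MC38-FUT9 sample 1 or 2 (adjusted p up to 0.0667). Zbp1 stayed called only without MC38-MOCK#2 sample 3, the sample with 92 normalized counts (adjusted p = 0.0119), and was not called without any other of the 6 samples (adjusted p up to 0.169).

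Partners of these genes were read from 8 lists of 94 genes that were measured, which cover the TNF receptor complex, other inputs to necroptosis, inflammasome sensors, gasdermins, cytokines, other caspases, guanylate binding proteins and interferon signalling. Several genes of the inflammasome, its cytokines and the death ligands were at or near 0, a set picked out after their values were seen. Pycard, the adaptor ASC that joins sensors to caspase-1, was listed at 0 in all 24 samples, the cytokine Il1b was at most 1, the cytokines Il18 and Il1a at most 2, and the sensors Nlrp3 and Nlrc4 at most 3 and 2. Tnf was at most 2 and Fasl at most 2. In all, 20 of the 94 genes had at most 3 normalized counts in every sample. Aim2, a DNA sensor, was expressed throughout, at 147 to 501 normalized counts, so a sensor and the protease were present while the adaptor was listed at 0.

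In MC38-COSMC KO 3 list genes rose and 5 fell of 77 tested, or 10.4% against the 11.6% of all genes. Gsdme, the gasdermin that caspase-3 cuts, had the largest of these changes, at 77, 66 and 71 normalized counts against 305, 339 and 258 in MC38-MOCK#1 (log2 fold change -2.05, SE 0.13, adjusted p = 5.36e-04, limma). Gbp3, an interferon-induced guanylate binding protein, fell by 1.59 and Irf1, a transcription factor of the interferon response, fell by 0.66. The death receptors Tnfrsf10b (-0.65) and Tnfrsf1a (-0.37) fell, while Tab2 and Otulin of the TNF receptor complex rose by 0.56 and 0.34 and Il18bp, a decoy for interleukin-18, rose by 0.81.

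Gsdme was also lower than in MC38-MOCK#1 in MC38-CMAS KO (123, 123 and 101 normalized counts; log2 fold change -1.37, adjusted p = 0.00427) and MC38-WT (114, 72 and 109; -1.62, adjusted p = 0.00815). In MC38-DKO it stood at 333, 384 and 308, above MC38-CMAS KO (log2 fold change 1.55, adjusted p = 8.14e-04), and its interaction was 3.61 (SE 0.19, adjusted p = 2.85e-08). Like Ripk3, Gsdme was thus high in MC38-MOCK#1, MC38-MOCK#2 and MC38-DKO and low in MC38-WT and both single knockouts. The likeness ended at the line labelled MC38-FUT4, where Gsdme was low (78, 66 and 79) and Ripk3 highest. In MC38-FUT9 Gsdme stood at 2, 5 and 4 normalized counts against 375, 339 and 319 in MC38-MOCK#2 (log2 fold change -6.26, SE 0.28, adjusted p = 9.09e-05). MC38-FUT9 therefore held the highest Gsdmd and the lowest Gsdme of the 8 lines.

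In MC38-CMAS KO 2 list genes rose and 4 fell of 77 tested, or 7.79% against 5.76% of all genes, among them Naip2 (-1.41) and Naip6 (-1.58), sensors of bacterial proteins whose sequences are closely related so that reads may be shared between them, and Irf1 (-0.64). In MC38-WT 2 of 75 fell (2.67% against 5.51% of all genes), Gsdme and Naip2 (-1.17). In MC38-DKO against MC38-MOCK#1 limma called 0 of 79, with 6 at an unadjusted p below 0.05, against 0.092% of all genes called. Between MC38-DKO and MC38-CMAS KO 2 rose, Gsdme and Irf1 (0.56), and 2 fell, Aim2 (-0.80) and Tab2 (-0.39), of 78 tested, or 5.13% against 6.93% of all genes. In MC38-MOCK#2 against MC38-MOCK#1 5 rose and 1 fell of 77 (7.79% against 11.3% of all genes), with Il1r1, the receptor of interleukin-1, higher by 0.85 and Ninj1, which ruptures the membrane of dying cells, by 0.70.

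In the line labelled MC38-FUT4 3 list genes rose and 9 fell of 76 tested, or 15.8% against 16.1% of all genes. Casp12, which lies 8646 bases beyond Casp4 on chromosome 9 with no annotated gene between them, stood at 287, 227 and 294 normalized counts against 23, 26 and 43 in MC38-MOCK#2 (log2 fold change 3.14, SE 0.25, adjusted p = 6.07e-04, limma). Aim2 rose by 1.38 to 453 normalized counts and Tnfaip3, which restrains NF-kappaB, by 0.85. Casp12 and Casp1, 2 of 3 neighbouring inflammatory caspase genes, were thus called higher in this line, and Casp4 between them was not. After removal of the line means Casp12 had a Pearson's r of 0.885 with Casp1 and 0.821 with Casp4 over 24 samples. Genes that fell included Il1r1 (-1.37), Tlr4 (-1.31), the alarmin Hmgb1 (-0.93) and Tnfrsf10b (-0.65). Markers of intestinal epithelium moved with this line, with 8 markers summing to 266 to 476 normalized counts against 6 to 19 in MC38-MOCK#2, nearly all of it Krt20, and their part in these results was not tested.

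**Figure D4:**
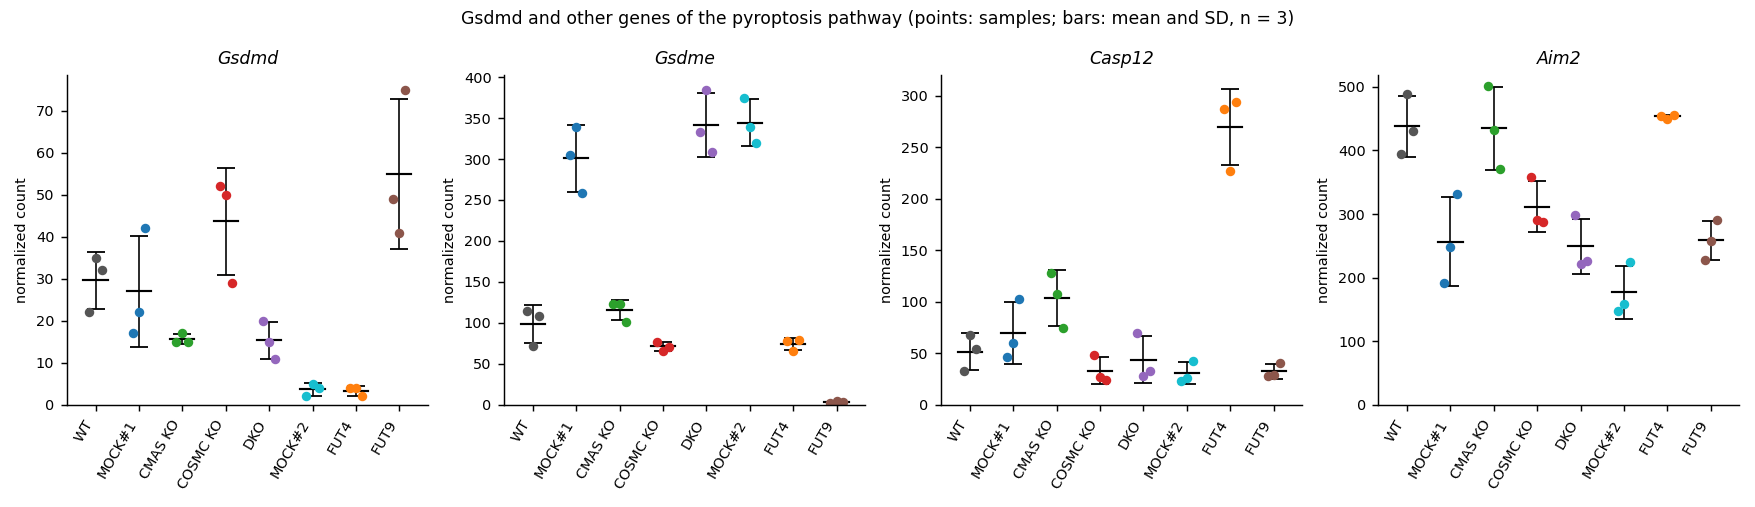
Normalized counts (vertical axes, from 0) of Gsdmd, Gsdme, Casp12 and Aim2 in 8 MC38 lines (horizontal axes); points are samples and bars give the mean and SD over 3 samples. Gsdmd was highest in MC38-FUT9, where Gsdme was at 2 to 5, and Casp12 reached 227 to 294 in the line labelled MC38-FUT4.

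In MC38-FUT9 3 list genes rose and 21 fell of 76 tested, or 31.6% against 24.1% of all genes. The guanylate binding proteins and partners of caspase-11 had 4 of 5 tested genes called lower. The median log2 fold change of this list was -3.41, against 0.01 over all genes tested. Those called lower included Gbp2 (6.33 against 108 normalized counts, -3.78, SE 0.35), Gbp3 (2.67 against 92.0, -4.11, SE 0.82) and Irgm2 (5.67 against 119, -3.41, SE 1.005). Irgm2 passed only narrowly (adjusted p = 0.049, limma). Of 12 interferon signal transducers 5 fell, among them Irf7 (-4.26, SE 1.035) and Stat2 (-1.64, SE 0.39). In MC38-MOCK#2 Irf7 ran from 30 to 352 normalized counts with a median of 41, so the size of its fall is uncertain. Birc3 (-2.13), which ubiquitinates RIPK1, and the death receptor Tnfrsf10b (-1.49) fell as well. Gbp2, Gbp3, Irf7 and Zbp1 all had their lowest line mean in MC38-FUT9, a line in which Casp1 and Ripk3 were low as well.

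Interferon-induced genes also differed between samples of a line, and part of the spread of the members went with them. Irf7, the master regulator of type I interferon, stood at 6, 222 and 47 normalized counts in MC38-WT, at 13, 21 and 102 in MC38-MOCK#1 and at 41, 30 and 352 in MC38-MOCK#2. The samples with the highest Irf7 in these lines were also those with the highest Zbp1. In the line labelled MC38-FUT4 Irf7 stood at 118, 15 and 113, and its sample 2 had 1 normalized count of Zbp1 against 35 and 40. After removal of the line means, Pearson's r with Irf7 over 24 samples was 0.864 for Zbp1, 0.847 for Casp4, 0.821 for Casp8, 0.772 for Casp1, 0.662 for Mlkl, 0.554 for Gsdmd, 0.378 for Ripk3 and 0.123 for Ripk1. The sample with the highest Irf7 was also the highest for Casp4 in 8 of 8 lines, for Casp1 and Mlkl in 6 of 8, for Ripk3 and Casp8 in 5 of 8 and for Ripk1 in 4 of 8, and for Zbp1 and Gsdmd in 5 of the 7 lines with a single highest sample. By this count only Casp4 of the 8 genes followed Irf7 in every line. MC38-COSMC KO was not low in Irf7 (37, 24 and 10) when set beside MC38-CMAS KO (43, 17 and 15) and MC38-DKO (37, 12 and 5), although its Casp1 and Casp4 lay below both.

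**Figure D5:**
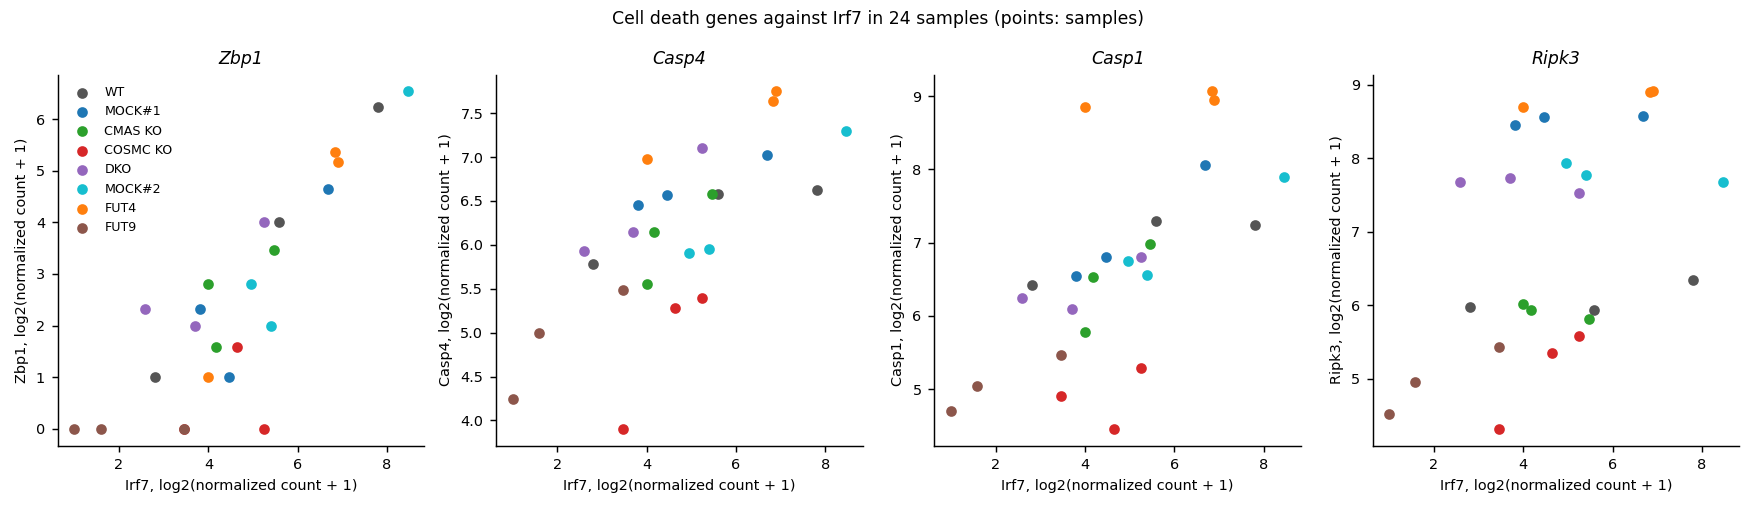
Zbp1, Casp4, Casp1 and Ripk3 (vertical axes) against Irf7 (horizontal axes), all as log2(normalized count + 1), in 24 samples coloured by line. With line means removed, r with Irf7 was 0.864 for Zbp1 and 0.847 for Casp4 and 0.378 for Ripk3, whose samples formed bands by line.

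The genes whose pattern over the 24 samples was most like that of a member, by Pearson's r of log2 values among genes with a mean of at least 10 normalized counts, differed from member to member. Those nearest to Zbp1 included Slc2a1 (0.924) and Ifit1 (0.881). Ripk3 was most like Mtmr6 (0.914), Hspa14 (0.912) and Madd (0.893), and Gsdmd most like Ptprm (0.903), Kmt2c (0.873) and R3hdm1 (0.873). For Casp1 these were Gpcpd1 (0.918), Wdfy2 (0.914) and Bnip3l (0.910), and for Casp4 after Casp1 they were Smim1 (0.894) and Bnip3l (0.892). Mlkl was most like H2-Q4 (0.917), Abca8b (0.917) and Ankrd44 (0.904), Casp8 most like Myo6 (0.867), Pon3 (0.867) and Rbl1 (0.850), and Ripk1 most like Uba3 (0.819), Twf1 (0.797) and Pclaf (0.796). Ifit1, near Zbp1, and H2-Q4, near Mlkl, are known to be interferon-induced, and Casp1 near Casp4 was the only case in which another of the 8 genes was among the nearest 3.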

How the data were processed

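RNA from 24 samples of 8 MC38 lines was prepared with a stranded mRNA kit and sequenced as 50-base single reads. The authors trimmed reads, aligned them to GRCm38 with HISAT2 2.0.4, handled alignments with SAMtools 0.1.19, counted reads per gene with featureCounts (Subread 1.5.0-p3), leaving out reads over several genes, and normalized with edgeR 3.18.1. The deposited values are scores: counts that the authors scaled by a factor per library and rounded, so count models were not run on them. Columns of the table were matched to samples by name.

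A gene was left out of a comparison if more than 4 of its 6 values were 0. limma 3.58.1 in R 4.3.3 (lmFit, eBayes with trend) was fitted to log2(value + 1) for the 3 samples of either line, with Benjamini-Hochberg adjustment over all genes tested and a threshold of 0.05, and was tested on simulated data. Figures, levels and correlations were made with Python 3.11.15, pandas 2.3.3, numpy 2.4.6 and matplotlib 3.10.9. Depth was estimated from gaps and repeats in the rounded whole numbers, and samples of a line were compared by chi-square of the estimated reads over genes with at least 20 in a pair. Coordinates come from the GRCm38 annotation and promoter sequences from RefSeq. The members and gene lists were chosen with earlier results of these data known. Named besides the 8 members were the targeted genes, up to 3 called genes per list and direction with the largest change and a mean of at least 10, the 3 genes most alike, and markers above 0. Other genes were named after their values were seen. One gene that this rule names is not reported here. Alternatives were other pseudocounts, filters and scalings, a fit of all 24 samples, eBayes without trend, the replicate number as a block, and leaving out each sample. Same-numbered samples were not treated as pairs in the main analysis.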

Additional observations from a re-analysis of the deposited data

Results flagged for a closer look

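For 3 genes the change that went with the COSMC label differed by whether the CMAS label was present, in a test of the difference itself with limma on 12 samples. The interaction on the log2 scale was 5.17 for Ripk3 (95% interval 4.43 to 5.91), 2.21 for Casp1 (1.03 to 3.38) and 2.12 for Casp4 (0.90 to 3.34). Ripk3 was lower in all 3 samples of MC38-COSMC KO than in any of MC38-MOCK#1 and higher in all 3 samples of MC38-DKO than in any of MC38-CMAS KO. Of all genes tested, 23% were called in the same test. Each combination of the labels was a single line, so the interaction cannot be told apart from other differences between these lines. The fall of Ripk3 in MC38-COSMC KO was taken from MC38-MOCK#1, with a mean of 369 normalized counts, whereas the unmodified MC38-WT stood at 67.3.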

How the results depend on the processing

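Ripk3 kept its direction in every alternative of the 8 comparisons of lines in which it was called, and the interactions of Ripk3, Casp1 and Casp4 stayed called under all 9 alternatives besides leaving out samples (adjusted p at most 3.37e-05, 0.0364 and 0.048, limma). With eBayes without a trend, members called became 1 in MC38-COSMC KO against MC38-MOCK#1 (Ripk3), 0 in MC38-COSMC KO against MC38-WT and 0 in MC38-DKO against MC38-MOCK#1. In a single fit of all 24 samples, members called were 0 in MC38-DKO against MC38-MOCK#1, 2 in MC38-WT against MC38-MOCK#1, 4 in MC38-MOCK#2 against MC38-MOCK#1 and 2 in MC38-COSMC KO against MC38-WT. Zbp1 in MC38-FUT9 lost its call with a pseudocount of 5, without a trend and under the block (adjusted p 0.0284 to 0.141 over its alternatives), and Casp4 in MC38-FUT9 was called under 5 of 9 alternatives (0.0143 to 0.119). The causes were not tested.

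All genes called, without a trend, numbered 1135 in MC38-COSMC KO (2563 in the main analysis), 726 in MC38-CMAS KO (1268), 40 in MC38-DKO (20), 717 in MC38-WT (1192) and 1389 in MC38-MOCK#2 (2454), each against MC38-MOCK#1. They numbered 2270 in the line labelled MC38-FUT4 (3509) and 3430 in MC38-FUT9 (5166), each against MC38-MOCK#2, and 692 in MC38-DKO against MC38-CMAS KO (1515). With all 24 samples they numbered 2207 in MC38-CMAS KO, 159 in MC38-DKO, 2981 in MC38-WT and 3976 in MC38-MOCK#2 against MC38-MOCK#1, 2403 in MC38-DKO against MC38-CMAS KO and 945 in MC38-COSMC KO against MC38-WT (127).

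After removal of the line means, all 6 samples correlated best with their own number in 3 of 9 comparisons. These were MC38-DKO against MC38-CMAS KO, MC38-FUT9 against MC38-MOCK#2, and the mock lines. Their same-numbered samples had r from 0.0496 to 0.1833, from 0.0912 to 0.2162 and from 0.0948 to 0.2697 in turn. By the labels, same-numbered samples shared a passage in the first and second of these, but not between the mock lines. They also shared it in MC38-COSMC KO, MC38-CMAS KO and MC38-DKO against MC38-MOCK#1. There 0, 2 and 0 samples correlated best with their own number. Whether same-numbered samples were pairs was not tested. With the replicate number as a block, limma called 0 members in MC38-COSMC KO, MC38-CMAS KO, MC38-DKO and MC38-WT against MC38-MOCK#1 and 0 in MC38-COSMC KO against MC38-WT (3, 1, 1, 2 and 5 members at an unadjusted p below 0.05), and of all genes 4, 1, 0, 0 and 0 (4669, 3960, 1408, 3788 and 2390 at an unadjusted p below 0.05). Under the block 1 member (Ripk3) and 1756 genes were called in the line labelled MC38-FUT4, and 795 genes in MC38-DKO against MC38-CMAS KO; 5 members were called in MC38-FUT9, where Zbp1 lost its call and Casp4 gained one, and the 3 of the interaction stayed called.

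Over the fits that each left out 1 sample, members called ranged from 1 to 2 in MC38-COSMC KO, from 0 to 0 in MC38-DKO and from 0 to 1 in MC38-MOCK#2 against MC38-MOCK#1, from 0 to 0 in MC38-COSMC KO against MC38-WT, from 1 to 3 in the line labelled MC38-FUT4 and from 3 to 5 in MC38-FUT9. All genes called ranged from 667 to 2119 in MC38-COSMC KO, from 113 to 852 in MC38-CMAS KO, from 0 to 5 in MC38-DKO, from 31 to 703 in MC38-WT and from 634 to 1708 in MC38-MOCK#2 against MC38-MOCK#1. They ranged from 1592 to 3074 in the line labelled MC38-FUT4, from 2694 to 5035 in MC38-FUT9, from 228 to 733 in MC38-DKO against MC38-CMAS KO and from 0 to 33 in MC38-COSMC KO against MC38-WT.

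Log2 fold changes that turned sign belonged to results that were not called (adjusted p at least 0.672). With totals made equal, Ripk1 and Mlkl in MC38-COSMC KO came to -0.0237 and -0.0417, Mlkl in MC38-DKO against MC38-MOCK#1 to -0.0144 and Ripk1 in MC38-FUT9 to -0.0856 (-0.0143 when rescaled by median of ratios). Zbp1 came to 0.0150 in MC38-CMAS KO with a pseudocount of 0.5 and to -0.0403 in MC38-DKO against MC38-MOCK#1 with a pseudocount of 5. When a sample was left out, against MC38-MOCK#1 the log2 fold change ranged from -0.48 to 0.39 for Casp1 and from -0.25 to 2.12 for Zbp1 in MC38-MOCK#2, from -0.45 to 0.31 for Casp1, from -0.0623 to 0.57 for Gsdmd and from -0.16 to 2.46 for Zbp1 in MC38-WT, from -0.0630 to 0.12 for Mlkl and from -0.0112 to 0.0902 for Ripk1 in MC38-COSMC KO, from -0.87 to 0.96 for Zbp1 in MC38-CMAS KO, and from -0.0756 to 0.10 for Mlkl and from -0.71 to 1.11 for Zbp1 in MC38-DKO. In MC38-DKO against MC38-CMAS KO it ranged from -0.37 to 0.23 for Casp1, from -0.0562 to 0.54 for Casp4, from -0.26 to 0.14 for Gsdmd, from -0.12 to 0.0221 for Ripk1 and from -0.46 to 0.58 for Zbp1. Against MC38-MOCK#2 it ranged from -0.38 to 0.16 for Gsdmd, from -0.0444 to 0.0969 for Mlkl and from -0.83 to 1.48 for Zbp1 in the line labelled MC38-FUT4, and from -0.0457 to 0.0292 for Ripk1 in MC38-FUT9. Zbp1, and Gsdmd in MC38-MOCK#2 and the line labelled MC38-FUT4, rest on few reads, so smaller differences in them were not detectable at this depth.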
